A study of Mus musculus with 38 samples.

Results

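The 6 genes described here, Spp1, Tnc, Postn, Sparc, Thbs1 and Thbs2, code for matricellular proteins, and they were found among 57126 genes of the tumour and miRNA tables and 55487 genes of the culture and brain tables. They were chosen by what their proteins do and on their CPM, the reads of a gene relative to those of its library scaled to a common depth, in every group of these same libraries, so all their levels and differences are a description, and no calls among them stand as evidence about the family. All 6 were listed in all 4 tables. The labels give all 38 libraries as the mouse mammary adenocarcinoma line 4T1, which serves as a model of triple-negative breast cancer. The question of the series was how insulin resistance acts on this cancer through exosomes, small vesicles released by cells, here those of 3T3-L1 adipocytes, fat cells differentiated from a mouse fibroblast line.

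In culture, 3 libraries came from 4T1 cells that received insulin resistant adipocyte exosomes (IR), 3 from cells that received insulin sensitive adipocyte exosomes (IS) and 3 from untreated cells, with 72 h of culture after the exosomes. A clonogenic assay, which grows out colonies of the tumour cells that a tissue holds, was done on brain and gave 5 libraries of an IR group, 5 of an IS group and 5 of an untreated control group. From primary tumours there were 5 libraries of an IR group and 4 of an untreated control group. The labels do not say what the IR and IS groups of the brain and tumour experiments received, how many animals gave the libraries, or the animals' strain, sex or age. From 4T1 cells in culture, 3 further libraries were titled as given miR-145a-3p and 2 as given a scrambled RNA. The names of these last 5 libraries go against their titles, since those titled scrambled carry names with miR145 and those titled miR-145a-3p carry names with ScRNA, and the direction of each difference below would turn if the names were right.

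Library totals ran from 8455412 to 13272583 counts in the culture and brain tables and from 17392887 to 32637552 counts in the tumour and miRNA tables. Of 10 markers of 4T1 epithelial cells, all were found in culture, where they summed to between 2853 and 3840 CPM. In the brain libraries, which are labelled as 4T1 cells, the same markers summed to 121 to 257 CPM. Epcam, the epithelial adhesion molecule, averaged 0.913, 0.979 and 2.00 CPM in IR, IS and control libraries. The largest parts of the sum were Krt18, at 95.9, 90.0 and 95.1 CPM, and Cldn4, at 62.1, 42.7 and 90.3 CPM, in the same order. In culture Cldn4 averaged 76.9, 82.0 and 135.7 CPM in IR exosome, IS exosome and untreated cells. The summed markers thus go against the label, while Cldn4 in control brain libraries does not. In the same brain libraries, markers of macrophages and microglia summed to 418 to 3680 CPM and those of pericytes and smooth muscle to 436 to 1333 CPM over the 15 brain libraries. In tumours, epithelial markers summed to 3163 to 6833 CPM. Markers of skeletal muscle summed to 10600 and 1568 CPM in tumour libraries IR 4 and IR 5, against 8.48 to 211 CPM in the 7 others.

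Matricellular proteins are secreted into the extracellular matrix without being part of its load-bearing fibres. They bind collagens, fibronectin, proteases and growth factors on one side and integrins and other receptors on the other, and so change how firmly cells attach, move and respond to growth factors. They are low in most resting adult tissues and high in development, wound healing and tumours. Spp1, osteopontin, binds integrins and CD44 and is made by carcinoma cells and macrophages. Tnc, tenascin C, and Postn, periostin, are made mainly by activated fibroblasts, and mouse studies of breast cancer have tied both to the outgrowth of metastases. Sparc, osteonectin, binds collagen. Thbs1 and Thbs2, thrombospondins 1 and 2, bind CD36 and CD47 and restrain vessel growth, and Thbs1 also activates latent TGF-beta.

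The promoters of Tnc, Postn and Thbs2 are shown because the levels of these 3 genes did not overlap between the tumour groups below, and that of Spp1 because its levels there did. Each window holds 250 bases before and 50 bases after a start in RefSeq (GRCm38.p6) and is written along the gene's strand. Capitals mark 4 short motifs searched on both strands, namely TATAAA for the TATA box, CCAAT for the box of that name, GGGCGG for the GC box and CAGACA for the SMAD-responsive CAGA box, and the reverse strand's letters are in capitals as they read here. The AP-1 letters TGANTCA were searched too. RefSeq gives a second start for Spp1, Tnc and Postn that is not shown, and the start shown was chosen after the matches were seen.
Tnc, chr4:64046887-64047186, minus strand: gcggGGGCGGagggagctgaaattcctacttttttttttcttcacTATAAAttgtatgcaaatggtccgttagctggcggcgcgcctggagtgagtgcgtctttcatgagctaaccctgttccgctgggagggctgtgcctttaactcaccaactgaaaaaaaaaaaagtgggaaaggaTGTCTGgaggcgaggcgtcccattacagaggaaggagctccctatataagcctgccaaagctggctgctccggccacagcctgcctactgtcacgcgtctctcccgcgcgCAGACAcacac
Postn, chr3:54360857-54361156, plus strand: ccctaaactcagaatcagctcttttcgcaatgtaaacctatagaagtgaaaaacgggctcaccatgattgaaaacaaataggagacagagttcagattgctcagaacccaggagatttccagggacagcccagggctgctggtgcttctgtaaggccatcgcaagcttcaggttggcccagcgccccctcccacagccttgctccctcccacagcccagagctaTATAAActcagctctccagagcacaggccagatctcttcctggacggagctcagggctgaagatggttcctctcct
Thbs2, chr17:14694213-14694512, minus strand: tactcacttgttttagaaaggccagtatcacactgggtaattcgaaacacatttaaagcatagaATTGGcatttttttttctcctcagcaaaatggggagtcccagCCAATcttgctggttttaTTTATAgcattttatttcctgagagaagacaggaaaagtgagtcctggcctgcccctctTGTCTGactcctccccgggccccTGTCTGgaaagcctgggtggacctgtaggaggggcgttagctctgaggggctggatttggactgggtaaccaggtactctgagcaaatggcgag
Spp1, chr5:104434861-104435160, plus strand: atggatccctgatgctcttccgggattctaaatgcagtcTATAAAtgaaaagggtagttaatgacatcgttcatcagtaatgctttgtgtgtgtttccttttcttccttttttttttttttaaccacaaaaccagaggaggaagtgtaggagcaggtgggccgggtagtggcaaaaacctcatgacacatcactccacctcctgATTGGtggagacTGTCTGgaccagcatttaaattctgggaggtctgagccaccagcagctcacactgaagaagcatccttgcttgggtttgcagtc

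All 4 windows shown held TATAAA, which 13.6% of 32851 promoter windows of the same length held, but the choice of starts bears on this. At the starts not shown, the Spp1 window held no motif searched, the Postn window held CCAAT alone, and the Tnc window, which overlaps the one printed, held the letters of the TATA, GC and CAGA boxes. In the Postn window it began at position -26 from the start, where a TATA box usually lies. TATAAA began at -205 for Tnc, -126 for Thbs2 and -211 for Spp1. Only these exact letters were searched, and near matches stay in lower case. The Tnc window holds such a near match, tatataag, between its 2 CAGACA matches and nearer the start than TATAAA. The Spp1 window also holds a near match, tttaaa, after its CAGACA match and nearer the start than TATAAA. The search thus does not settle where a TATA box lies in the Tnc or the Spp1 window. CAGACA stood 2 times in the windows of Tnc and Thbs2, once in that of Spp1 and not in that of Postn, and 21.0% of all windows held it. Among the windows shown, CCAAT was found for Thbs2 and Spp1 (37.4% of all windows), GGGCGG for Tnc (35.7%) and TGANTCA in none of the 4 (7.81%). The Sparc window at chr11:55420031-55420330 held 2 CAGACA matches and none of the other letters. These are matches of letters, not sites of binding.

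Levels of different genes were set side by side per kilobase of exon, since CPM grows with gene length. In untreated 4T1 cells the order was Spp1 at 184.5, Thbs1 at 110, Sparc at 73.8, Tnc at 4.98 and Postn at 1.90 CPM per kilobase, with no overlap between neighbours over the 3 libraries. Thbs2 had no count in the 3 untreated libraries, 2 counts in 1 of 3 IS exosome libraries and 1 count in 1 of 3 IR exosome libraries, and a count of 0 allowed up to 0.233 to 0.330 CPM in the libraries without a count, from 3 counts a library. Intervals of this kind cover counting error only. Spp1 stood higher in tissue-derived libraries, at 2490, 2292 and 2756 CPM per kilobase in IR, IS and control brain libraries and 2679 and 2618 in IR and control tumours. By this length-scaled level it ranked 10th, 12th and 8th of 12915 genes in IR, IS and control brain libraries and 7th and 8th of 12838 genes in IR and control tumours.

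Sparc, Postn, Tnc and Thbs2 stood highest in IR tumours, and Thbs1 did not. Thbs1 was highest in control brain libraries, at 687 CPM per kilobase, and the 2 lowest groups were control tumours at 30.1 and IR exosome cells at 40.7. Sparc was at 723 and 457 in IR and control tumours and at 422, 396 and 492.5 in IR, IS and control brain libraries, and at 59.7 to 87.1 in the 5 groups of 4T1 cells in culture. Postn was at 172 and 109 in IR and control tumours, 8.58, 9.21 and 12.0 in IR, IS and control brain libraries, and 0.413 to 4.05 in the 5 culture groups. Tnc was at 102 and 34.4 in IR and control tumours and 53.4, 29.0 and 36.3 in IR, IS and control brain libraries, and at 3.64 to 6.26 in the culture groups. Thbs2 was at 52.9 and 22.3 in IR and control tumours and 11.25, 10.9 and 11.95 in IR, IS and control brain libraries. Tables were quantified separately, so these levels were not tested between experiments, and within brain the groups overlapped for all members but Thbs1, whose IR and IS groups overlapped with each other.

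**Figure D1:**
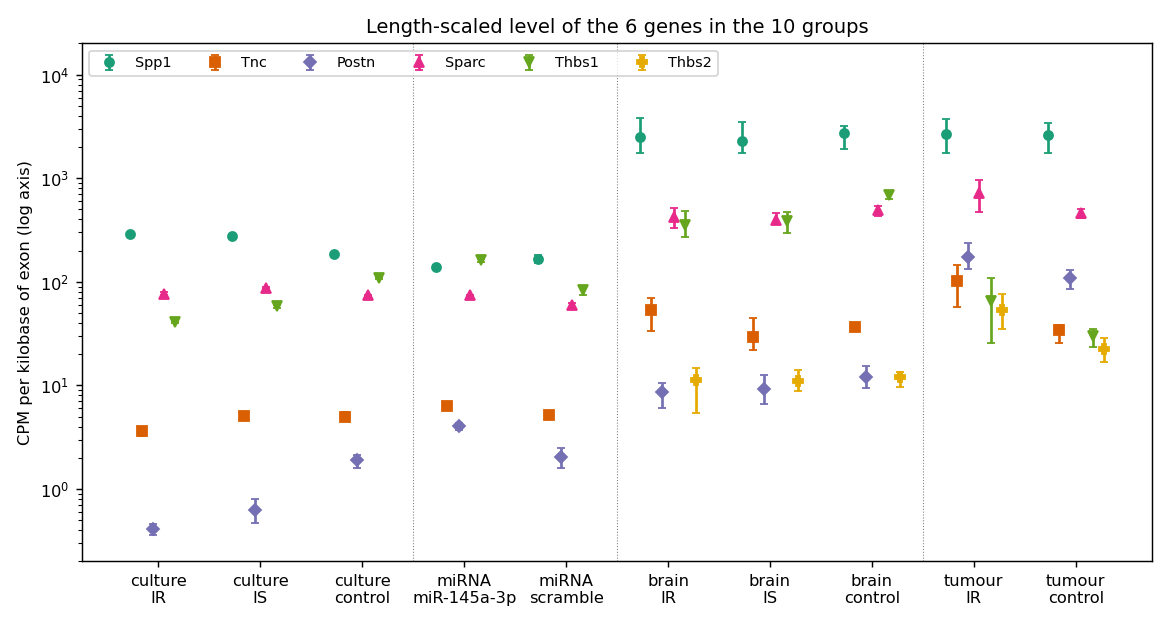
Mean level of each gene in CPM per kilobase of exon, on a log axis, in the 10 groups; bars run from the lowest to the highest library, and dotted lines part the 4 experiments. Spp1 leads in every brain and tumour group, and Thbs2 is left out in the culture and miRNA groups, each of which has a library at 0.

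With IR exosomes, cultured 4T1 cells had less Thbs1, Postn and Tnc and more Spp1 than untreated cells, and Sparc did not pass the test. Of the 5 genes tested, 1 was called higher and 3 lower at an adjusted p of 0.05, against 6.67% of 10888 tested genes called higher and 6.9% called lower. Nothing is read from that contrast, since the genes were chosen on these values. Thbs2 was below the filter of 3 CPM in 3 libraries. Postn passed the filter only through the 3 untreated libraries, so it had to differ. Marker sums also differed between these groups without overlap. The 10 epithelial markers summed to 3341 to 3405 CPM in IR exosome cells, 2853 to 2922 CPM in IS exosome cells and 3838 to 3840 CPM in untreated cells, with 7 of 10 called lower with IR and 8 of 10 with IS exosomes. The 8 fibroblast markers summed to 22.9 to 25.0 CPM with IR exosomes, 26.5 to 31.7 CPM with IS exosomes and 12.1 to 15.5 CPM without. Nearly all of that was Pdgfra, the one tested, which averaged 23.4, 27.2 and 13.2 CPM in IR exosome, IS exosome and untreated cells and was called higher with both, while Col3a1, Dpt and Lum were at 0 in every library. The part of these markers in the results was not tested.

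Thbs1 stood at 232, 238 and 244 CPM in IR exosome cells, against 624.9, 644 and 652 CPM in untreated cells. Its mean was 238 ± 6.23 CPM in IR exosome cells and 640.5 ± 14.1 CPM in untreated cells (SD, n = 3 each), and it fell 2.69-fold (log2 -1.43 ± 0.038, SE, adjusted p = 9.75e-14). The groups lay far apart, with every IR exosome library below the lowest untreated one. Cells given IS exosomes were in between, at 330, 344 and 353 CPM, 1.87-fold lower than untreated cells (log2 -0.90 ± 0.037, adjusted p = 3.93e-11). The 2 exosome kinds themselves differed, with Thbs1 1.44-fold lower in IR than in IS exosome cells (log2 -0.53 ± 0.038, adjusted p = 2.82e-06), and no library of a group overlapped with those of another.

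Postn was low throughout, at 1.19, 1.375 and 1.504 CPM in IR exosome cells, 1.54, 2.00 and 2.64 CPM in IS exosome cells and 5.19, 6.50 and 7.08 CPM in untreated cells. These levels rest on 44, 70 and 187 counts summed over the IR, IS and untreated libraries. Postn had to differ from untreated cells, since it passed the filter through their libraries alone. It fell 4.56-fold with IR exosomes (log2 -2.19 ± 0.24, adjusted p = 9.38e-06) and 3.00-fold with IS exosomes (log2 -1.58 ± 0.22, adjusted p = 0.000104). For IR over IS exosomes the log2 difference was -0.60 ± 0.28 (adjusted p = 0.219), which did not pass. Without any 1 untreated library Postn no longer passed the filter, so those fits gave no value.

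Tnc differed between the exosome kinds. It stood at 25.3, 28.8 and 30.8 CPM in IR exosome cells, 38.5, 39.4 and 41.4 CPM in IS exosome cells and 35.9, 37.3 and 42.8 CPM in untreated cells. The IR exosome libraries lay below all 6 others, and those of IS exosome and untreated cells overlapped. Tnc fell 1.36-fold with IR exosomes against untreated cells (log2 -0.45 ± 0.085, adjusted p = 0.00187) and 1.40-fold against IS exosomes (log2 -0.49 ± 0.084, adjusted p = 0.00274). For IS exosomes against none the log2 difference was 0.04 ± 0.081 (adjusted p = 0.75), and it was -0.01 without untreated replicate 1.

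Spp1 was the member that rose with both kinds of exosome. Its levels were 467, 477 and 481 CPM in IR exosome cells, 441, 459 and 465 CPM in IS exosome cells and 297, 302 and 313 CPM in untreated cells. The rise was 1.56-fold with IR exosomes (log2 0.64 ± 0.036, adjusted p = 2.11e-09) and 1.5-fold with IS exosomes (log2 0.58 ± 0.036, adjusted p = 7.87e-09). The 2 exosome groups lay next to each other without overlap, at a log2 difference of 0.06 ± 0.036 for IR over IS (adjusted p = 0.322).

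Sparc passed the test in the comparisons with IS exosomes. It stood at 203, 209 and 216 CPM in IR exosome cells, 234, 234 and 242 CPM in IS exosome cells and 199, 201 and 202 CPM in untreated cells. It rose 1.18-fold with IS exosomes (log2 0.24 ± 0.035, adjusted p = 0.00017), and it was 1.13-fold lower in IR than in IS exosome cells (log2 -0.18 ± 0.035, adjusted p = 0.0064). With IR exosomes against none the log2 difference was 0.06 ± 0.035 (adjusted p = 0.325). For IS exosomes 2 of the 5 tested members were thus called higher and 2 lower, against 9.97% and 9.32% of all tested genes. Among those lower was Postn, which had to differ, as above. Between IR and IS exosomes 0 were higher and 3 lower, against 2.82% and 3.45%. The comparisons with untreated cells share those 3 libraries.

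**Figure D2:**
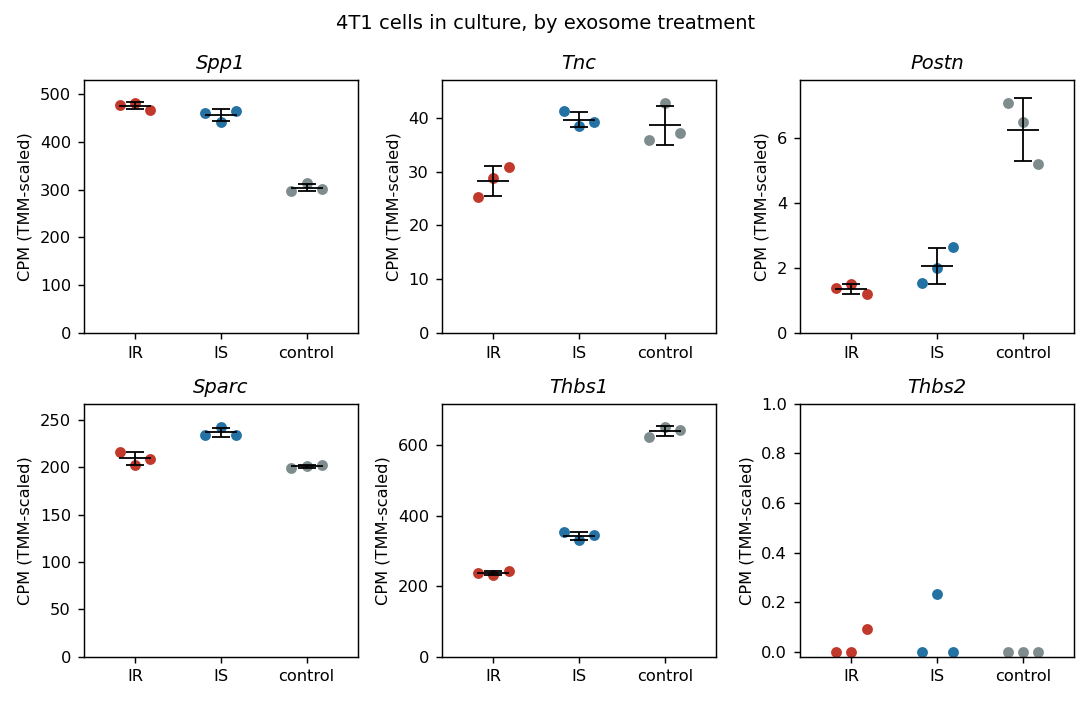
Level of each gene in CPM in cultured 4T1 cells given IR or IS exosomes or left untreated; each point is a library, and bars are the mean ± SD of 3 libraries. Thbs1 lies at 232 to 244 with IR and 330 to 353 with IS exosomes, below untreated cells at 624.9 to 652, while Spp1 is higher in both exosome groups; for Thbs2 only the points are drawn.

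Genes related to these 6 by family, receptor or matrix were counted from the same fits over all genes. Of 24 other matricellular genes, 6 were tested in culture. With IR exosomes 2 were higher and 2 lower than in untreated cells (median log2 0.18, all genes 0.00), beside 6.67% and 6.9% of all tested genes, and with IS exosomes 4 were higher and 2 lower (median log2 0.42), beside 9.97% and 9.32%. These comparisons share the untreated libraries. Ccn2, connective tissue growth factor, averaged 105 CPM with IR exosomes and 201 CPM without, a fall of 1.92-fold (log2 -0.94 ± 0.057, adjusted p = 6.47e-09). Ccn1, which like Ccn2 binds integrins and is induced by YAP, fell 1.66-fold with IR exosomes (adjusted p = 5.03e-08) and 1.5-fold with IS exosomes (adjusted p = 6.75e-07). Ccn3, another member of that family, rose 2.59-fold with IR exosomes, to 4.03 CPM against 1.53 CPM in untreated cells (adjusted p = 0.00384), and it passed the filter only through exosome libraries, so it had to differ. Thbs3, another thrombospondin, rose 2.25-fold with IS exosomes (adjusted p = 0.000278), as did Fbln2, fibulin 2, by 1.27-fold (adjusted p = 8.63e-06). With IR against IS exosomes 0 of the 6 were higher and 2 lower, beside 2.82% and 3.45% of all tested genes, Ccn2 by 1.58-fold (adjusted p = 1.58e-05) and Fbln2 by 1.20-fold (adjusted p = 0.000652).

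Of 25 receptor genes, 18 were tested in culture, and the called ones went both ways. With IR exosomes 5 were higher and 4 lower (median log2 0.06), beside 6.67% and 6.9% of all tested genes, and with IS exosomes 6 were higher and 3 lower (median log2 0.10), beside 9.97% and 9.32%. Cd47, the thrombospondin receptor that also signals to phagocytes, rose 1.37-fold with IR exosomes (adjusted p = 2.61e-06) and 1.30-fold with IS exosomes (adjusted p = 2.15e-05). Itga3, an integrin chain that pairs with beta 1 to bind laminin, fell 1.16-fold (adjusted p = 2.9e-05) and 1.21-fold (adjusted p = 1.39e-06) with IR and IS exosomes. Itgb5, the beta chain of an integrin that binds vitronectin and osteopontin, rose 1.28-fold with IR exosomes (adjusted p = 0.000307). Cd44, the hyaluronan receptor that binds osteopontin, fell 1.26-fold with IS exosomes (adjusted p = 1.78e-05) and was 1.14-fold higher with IR than with IS exosomes (adjusted p = 0.0107). Stab1, a scavenger receptor that takes up Sparc, was 2.12-fold lower in IR than in IS exosome cells (adjusted p = 0.00048). These 2 were the called receptors of that comparison (median log2 0.01), where 2.82% of all tested genes were higher and 3.45% lower.

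Of 19 matrix partners and modifying enzymes, 11 were tested in culture, and 5 were higher and 4 lower with IR exosomes (median log2 0.14) and likewise with IS exosomes (median log2 -0.03), beside the same shares of all genes as for the receptors. Adamts1, a protease that cleaves Thbs1 and Thbs2, fell 2.75-fold with IR exosomes, to 41.3 CPM against 114 CPM in untreated cells (adjusted p = 2.48e-11), and 1.92-fold with IS exosomes (adjusted p = 3.83e-09). Mmp9, a gelatinase, fell 1.65-fold with IR exosomes (adjusted p = 1.04e-09). Mmp3, stromelysin 1, which cleaves osteopontin, rose 1.53-fold with IR exosomes (adjusted p = 2.42e-08) and 1.45-fold with IS exosomes (adjusted p = 1.19e-07). Mmp13, a collagenase, rose 3.33-fold with IS exosomes, to 9.89 CPM against 2.95 CPM in untreated cells (adjusted p = 8.79e-07), but it reached the 3 CPM of the filter in 1 of 3 untreated libraries and passed through the exosome libraries, so it had to differ. With IR against IS exosomes 0 partners were higher and 3 lower (median log2 -0.04), beside 2.82% and 3.45% of all tested genes, which were Adamts1 by 1.43-fold (adjusted p = 0.000104), Mmp9 by 1.24-fold (adjusted p = 0.000195) and Tgm2, a crosslinking transglutaminase, by 1.22-fold (adjusted p = 0.0365).

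In the brain experiment Thbs1 was lower in both the IR and the IS group than in controls, and no other member passed the test there. Of 6 tested members, 0 were called higher and 1 lower for IR against control, beside 6.45% and 5.27% of 12924 tested genes. For IS against control 0 were higher and 1 lower, beside 3.37% and 3.1%. Between IR and IS 0 were called, beside 0.0232% of genes in each direction. At an unadjusted p of 0.05 that last comparison held 2343 genes, and DESeq2 called 604 genes in it. The comparisons with controls share the 5 control libraries. In bulk libraries such as these, fewer cells that make a messenger and less of it per cell cannot be told apart.

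Thbs1 stood at 1581, 1811, 1848, 2231 and 2808 CPM in IR brain libraries, 1718, 1779, 2410, 2512 and 2757 CPM in IS libraries and 3703, 4040, 4045, 4089 and 4199 CPM in control libraries. All 10 IR and IS libraries lay below the lowest control, and the spread was wider among them, with an SD of 481 CPM for IR and 462 CPM for IS against 186 CPM for control. Thbs1 fell 1.95-fold in the IR group (log2 -0.97 ± 0.15, adjusted p = 0.00101) and 1.80-fold in the IS group (log2 -0.85 ± 0.15, adjusted p = 0.00344). Between IR and IS the log2 difference was -0.12 ± 0.15 (adjusted p = 0.732), and the libraries overlapped.

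Markers of some other cell types also differed between these groups. Markers of endothelial cells, which make vessels, summed to 380 to 794 CPM in IR libraries, 131 to 615 CPM in IS libraries and 101 to 144 CPM in control libraries, with 6 of 6 called higher in IR and 3 of 6 in IS. Markers of macrophages and microglia summed to 418 to 1988 CPM in IR libraries, 871 to 3680 CPM in IS libraries and 1738 to 3363 CPM in control libraries, with 5 of 7 tested called lower in IR and 0 of 7 in IS. Fibroblast markers summed to 274 to 659 CPM in IR libraries, 481 to 784 CPM in IS libraries and 636 to 832 CPM in control libraries, with 1 of 6 tested called lower in IR and 0 of 6 in IS. Markers of pericytes and smooth muscle summed to 436 to 948 CPM in IR libraries, 507 to 1333 CPM in IS libraries and 810 to 1178 CPM in control libraries, with 0 of 8 tested called in either. Both sums overlapped between the groups, with lower medians in IR and IS than in controls. Astrocyte markers summed to 104.8 to 189.2 CPM in IR, 152.5 to 226.7 CPM in IS and 110.7 to 151.8 CPM in control libraries. Of these 5 markers 2 were called higher in IR and 2 in IS, and the IS sums lay just above those of controls without overlap. Gja1 averaged 63.4, 60.0 and 35.7 CPM in IR, IS and control libraries. In culture it averaged 305.6, 299.1 and 294 CPM in IR exosome, IS exosome and untreated 4T1 cells. The sum thus does not mark astrocytes alone. In IR, IS and control brain libraries, Gfap averaged 40.8, 75.45 and 62.2 CPM and Aqp4 11.4, 23.1 and 11.2 CPM. Slc1a3 averaged 25.0, 24.7 and 17.4 CPM and Aldh1l1 4.27, 5.02 and 5.54 CPM, in the same order. None of these markers was at 0 throughout a group. Their part in the results for the 6 genes was not tested.

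Tnc stood at 262.5, 328, 435, 509.5 and 539 CPM in IR brain libraries, 169, 169.6, 188.5, 251 and 349 CPM in IS libraries and 266, 267, 274, 293 and 310 CPM in control libraries. The IR group overlapped with the controls only through its lowest library. The log2 difference was 0.56 ± 0.20 for IR against control (adjusted p = 0.0848), -0.32 ± 0.20 for IS against control (adjusted p = 0.381) and 0.88 ± 0.20 for IR against IS (adjusted p = 0.0711), and none passed. DESeq2 gave an adjusted p of 0.039 for IR against control and 0.00347 for IR against IS. Without IS replicate 2, the highest of its group, the last difference was 1.08 (adjusted p = 0.00352), and without the lowest IR library it was 1.01 (adjusted p = 0.0407). Without that IR library the difference from control was 0.69 (adjusted p = 0.0262).

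Postn stood at 20.1, 27.3, 28.1, 31.1 and 34.6 CPM in IR brain libraries, 21.9, 23.4, 32.1, 32.5 and 41.5 CPM in IS libraries and 31.3, 35.4, 36.3, 44.0 and 51.1 CPM in control libraries. Its log2 difference was -0.49 ± 0.18 for IR (adjusted p = 0.0892) and -0.38 ± 0.18 for IS against control (adjusted p = 0.221), with overlap in both. Sparc averaged 1148 ± 212 CPM in IR, 1077 ± 103 CPM in IS and 1340 ± 119 CPM in control libraries (SD, n = 5 each), at log2 -0.22 ± 0.11 for IR (adjusted p = 0.227) and -0.32 ± 0.11 for IS (adjusted p = 0.11). Fitted without the third group, Postn in IR against control had an adjusted p of 0.0483 and Sparc in IS against control one of 0.05, just under the threshold.

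The libraries of the 3 brain groups overlapped for Spp1 and Thbs2. Spp1 ran from 2911 to 6297 CPM in IR libraries, 2916 to 5684 CPM in IS libraries and 3168 to 5255 CPM in control libraries, and its log2 difference was -0.15 ± 0.21 for IR (adjusted p = 0.72) and -0.27 ± 0.21 for IS (adjusted p = 0.515). Thbs2, which was at or near 0 in cultured 4T1 cells, ran from 31.6 to 87.7 CPM in IR, 52.5 to 82.3 CPM in IS and 57.3 to 79.8 CPM in control libraries, at log2 -0.09 ± 0.21 for IR (adjusted p = 0.836) and -0.13 ± 0.20 for IS (adjusted p = 0.78).

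**Figure D3:**
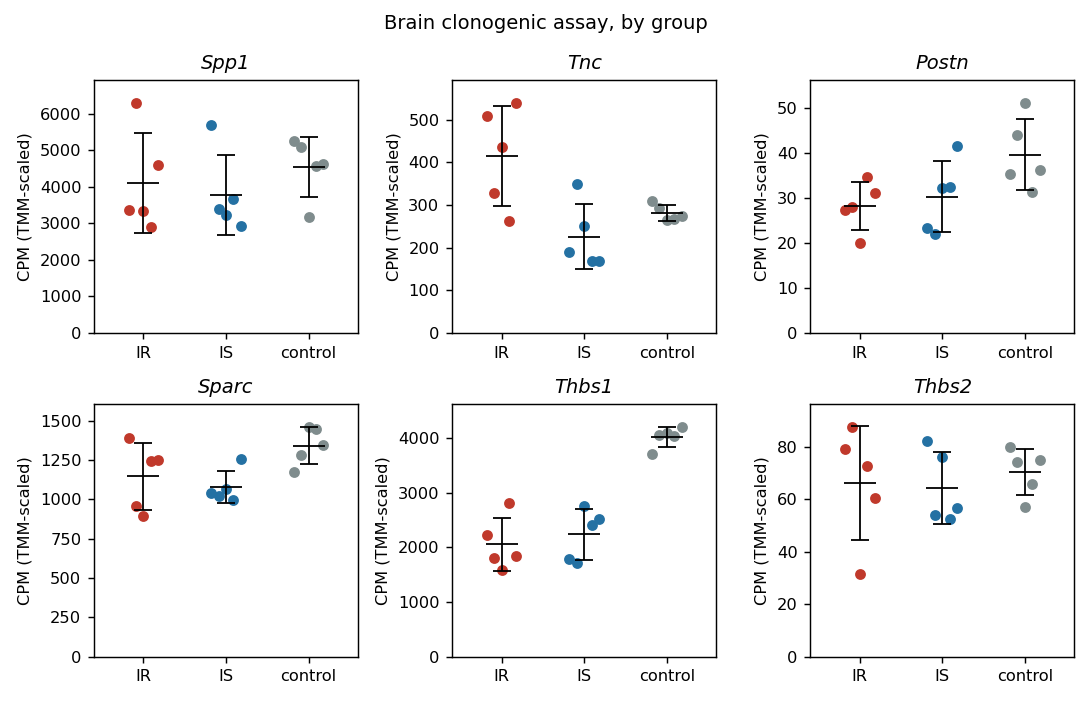
Level of each gene in CPM in the brain clonogenic assay, by group; each point is a library, and bars are the mean ± SD of 5 libraries. Thbs1 sits between 1581 and 2808 in the IR and IS groups, below every control library at 3703 to 4199, and the groups overlap for the other 5 genes.

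Of the 24 other matricellular genes, 18 were tested in brain, and 2 were higher and 3 lower in IR (median log2 -0.33, all genes 0.00), beside 6.45% and 5.27% of all tested genes, and 2 higher and 4 lower in IS (median log2 0.00), beside 3.37% and 3.1%. Ccn5, which lacks the family's C-terminal domain, averaged 39.6 CPM in IR and 37.6 CPM in IS against 105 CPM in control libraries, lower by 2.65-fold (adjusted p = 0.0019) and 2.79-fold (adjusted p = 0.002). Sparcl1, the closest relative of Sparc, rose 1.66-fold in IR (adjusted p = 0.00516) and 2.01-fold in IS (adjusted p = 0.000929). Ccn4 fell 1.44-fold in IR (adjusted p = 0.0028), and Ccn1 1.54-fold in IS (adjusted p = 0.00035). Between IR and IS no gene of the 3 lists was called.

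Of 23 tested receptors in brain, 1 was higher and 3 lower in IR (median log2 0.04), beside 6.45% and 5.27% of all tested genes, and 0 higher and 4 lower in IS (median log2 -0.09), beside 3.37% and 3.1%. Both comparisons use the same 5 controls. Lrp1, the endocytic receptor that clears thrombospondins, fell 1.36-fold in IR (adjusted p = 0.0269) and 1.57-fold in IS (adjusted p = 0.00448). Itgb5 fell 1.24-fold in IR (adjusted p = 0.0153) and 1.32-fold in IS (adjusted p = 0.00537), Itga3 fell 1.44-fold in IS (adjusted p = 0.0007), and Itga2, a collagen-binding integrin chain, rose 2.39-fold in IR, to 8.54 CPM against 3.57 CPM in controls (adjusted p = 0.0137). Of 17 tested matrix partners, 1 was higher and 4 lower in IR (median log2 -0.21) and 0 higher and 2 lower in IS (median log2 -0.10), beside those same shares. Lox, lysyl oxidase, which crosslinks collagen, averaged 344 CPM in IR and 330 CPM in IS against 910 CPM in control libraries, lower by 2.64-fold (adjusted p = 0.000222) and 2.76-fold (adjusted p = 0.000195). Col1a2, a chain of type I collagen, fell 1.72-fold (adjusted p = 0.022) and Tgm2 1.39-fold in IR (adjusted p = 0.0125), and Mmp2, a gelatinase, fell 1.63-fold in IS (adjusted p = 0.00322).

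In primary tumours, the means of 5 of the 6 genes were 1.58-fold to 2.97-fold higher in the IR group than in controls, and no gene of the table passed the test. With edgeR's quasi-likelihood test 0 members were called in either direction, beside 0% of 12962 tested genes higher and 0% lower, and 989 genes (7.63%) had an unadjusted p under 0.05. DESeq2, the authors' tool, called 4 of the 6 members higher and 0 lower, beside 0.744% and 0.217% of the 12911 genes it tested. The tumour libraries varied most, with a biological coefficient of variation of 0.326, against 0.0576 in culture and 0.159 in brain.

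Tnc stood at 448, 455, 806, 1129 and 1131 CPM in IR tumours, against 197, 284, 293 and 295 CPM in control tumours. The lowest IR tumour lay 1.52-fold above the highest control. The means were 794 ± 339 CPM for IR (SD, n = 5) and 267 ± 47.0 CPM for control (SD, n = 4), a ratio of 2.97-fold (log2 1.57 ± 0.32, unadjusted p = 0.000524, edgeR adjusted p = 0.369, DESeq2 adjusted p = 0.000119). Thbs2 likewise did not overlap, at 208, 210, 323, 373 and 445 CPM in IR tumours against 99.8, 103, 156 and 167 CPM in control tumours, a ratio of 2.37-fold (log2 1.24 ± 0.27, edgeR adjusted p = 0.369, DESeq2 adjusted p = 0.00135).

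Postn did not overlap either, though the gap was narrow. It stood at 434, 472, 567, 574 and 778 CPM in IR tumours, against 281, 360, 364 and 425 CPM in control tumours, a ratio of 1.58-fold (log2 0.66 ± 0.19, edgeR adjusted p = 0.494, DESeq2 adjusted p = 0.0467). Thbs1 stood at 151, 317, 380.5, 425 and 640 CPM in IR tumours against 138, 170.5, 193 and 204 CPM in control tumours, and overlapped through IR 2 (log2 1.12 ± 0.34, edgeR adjusted p = 0.494, DESeq2 adjusted p = 0.0396). Sparc stood at 1277, 1580, 1996, 2357 and 2625 CPM in IR tumours against 1129, 1197, 1269 and 1384 CPM in control tumours, and overlapped through IR 1 (log2 0.66 ± 0.20, edgeR adjusted p = 0.494, DESeq2 adjusted p = 0.0799). Spp1 overlapped throughout, at 2861 to 6129 CPM in IR tumours and 2856 to 5564 CPM in control tumours (log2 0.03 ± 0.24, edgeR adjusted p = 0.998). The share of all tested genes without overlap between the tumour groups was not counted. Nothing is therefore read from the lack of overlap for Tnc, Thbs2 and Postn.

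**Figure D4:**
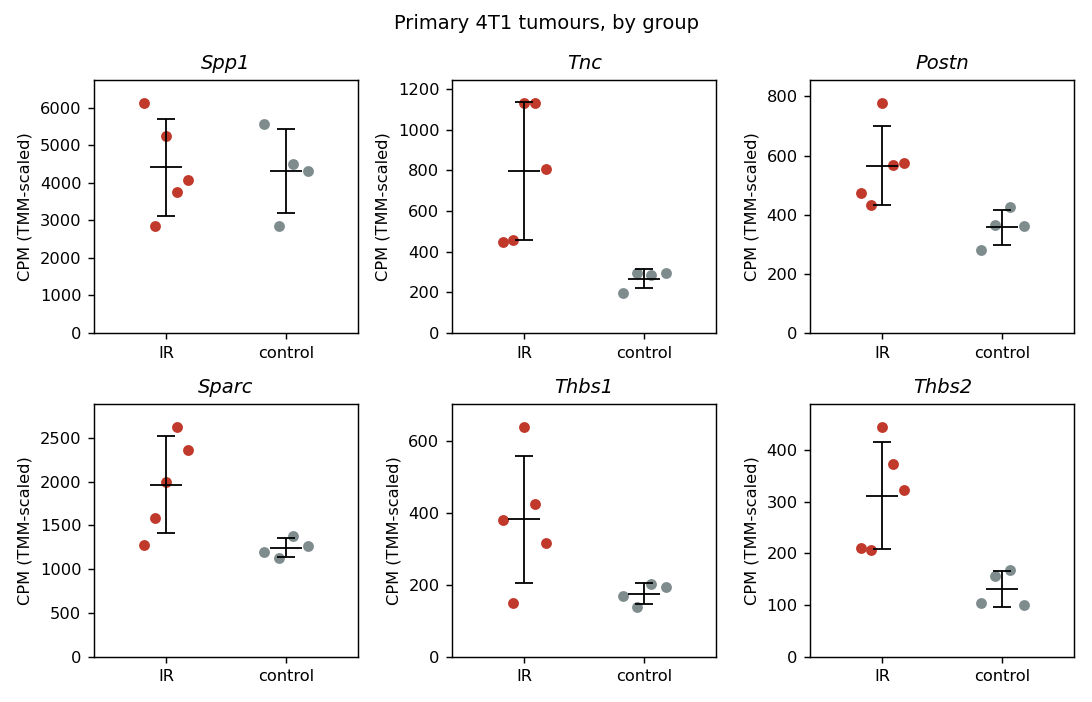
Level of each gene in CPM in primary tumours, by group; each point is a library, and bars are the mean ± SD of 5 IR and 4 control tumours. Tnc, Postn and Thbs2 do not overlap between the groups, Thbs1 and Sparc overlap through 1 IR tumour each, and Spp1 overlaps throughout. The share of all tested genes without overlap was not counted.

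The summed fibroblast markers were also higher in IR tumours, through their collagens. The 8 markers summed to 6313, 7976, 10140, 10700 and 12430 CPM in IR tumours, against 3627, 5063, 5298 and 6762 CPM in control tumours. Col1a1 averaged 3904 CPM in IR and 1925 CPM in control tumours, Col1a2 2492 CPM and 1210 CPM, Col3a1 2455 CPM and 1583 CPM, and Col6a3 336 CPM and 172.5 CPM, in the same order. The 4 markers that are not collagens had closer means. Pdgfra averaged 83.1 CPM in IR and 82.8 CPM in control tumours, Dpt 43.9 CPM and 47.1 CPM, Lum 71.9 CPM and 62.95 CPM, and Dcn 128 CPM and 105 CPM, in the same order. Their libraries spread more widely in IR tumours. Pdgfra ran from 56.1 to 117.7 CPM in IR and 70.75 to 93.22 CPM in control tumours, and Dpt from 8.862 to 73.39 CPM and 37.13 to 61.5 CPM. Lum ran from 55.18 to 95.23 CPM and 48.86 to 79.76 CPM, and Dcn from 54.15 to 209 CPM and 87.79 to 119.8 CPM, in that order. Markers of pericytes and smooth muscle summed to 322, 531.5 and 701 CPM in IR 1 to IR 3 and to 1919 and 1351 CPM in the muscle-rich IR 4 and IR 5, against 275 to 490 CPM in control tumours, and their list holds Des, also a skeletal muscle gene, which reached 984 CPM in an IR tumour. None of the 8 fibroblast markers was called by edgeR (median log2 0.46, all genes 0.01). The 10 epithelial markers had a higher median log2, 0.76, also with 0 called. Their sums overlapped, at 3657 to 6833 CPM in IR and 3163 to 5026 CPM in control tumours. The part of all these markers in the differences of the 6 genes was not tested. Set per 100 CPM of the summed fibroblast markers, a scale that is mostly collagen and was chosen after these values were seen, Tnc was at 8.08 ± 1.86 CPM in IR tumours and 5.25 ± 0.720 CPM in control tumours and overlapped. Thbs2 was at 3.26 ± 0.574 CPM in IR and 2.56 ± 0.443 CPM in control tumours on that scale. Postn was at 6.08 ± 1.25 CPM in IR and 7.004 ± 0.606 CPM in control tumours, and Sparc at 20.6 ± 1.72 CPM in IR and 25.0 ± 5.72 CPM in control tumours. Thbs1 was at 4.09 ± 1.84 CPM in IR and 3.53 ± 0.930 CPM in control tumours, and Spp1 at 50.5 ± 27.0 CPM in IR and 89.9 ± 44.3 CPM in control tumours, and all 6 genes overlapped. Without IR 4 and IR 5, the 2 tumours with high muscle markers, a fit added after the data were seen gave a log2 difference of 1.34 ± 0.33 for Tnc, 1.13 ± 0.31 for Thbs2, 0.65 ± 0.22 for Postn, 1.15 ± 0.39 for Thbs1 and 0.38 ± 0.15 for Sparc, with n = 3 IR and 4 control tumours and no call. The Sparc difference was thus 1.74 times smaller on the log2 scale without those 2 tumours.

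No gene of the 3 related lists was called in tumours. The median log2 difference was 0.72 over 19 tested other matricellular genes, 0.20 over 21 receptors and 0.47 over 18 matrix partners, beside 0.01 over all genes.

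Across the 9 tumour libraries, the levels of Tnc, Postn and Thbs2 ran closest, and Sparc and Thbs1 less so. On log2(CPM + 1), Pearson's r was 0.956 for Tnc and Thbs2, 0.950 for Postn and Thbs2, 0.937 for Tnc and Postn and 0.908 for Tnc and Sparc, and with group means taken out 0.854, 0.868, 0.831 and 0.800 in the same order. The lowest r among these 5 genes was 0.670, for Sparc and Thbs1, and it was 0.351 with group means taken out. For Postn and Sparc it was 0.785, or 0.510 with group means taken out, and for Thbs1 and Thbs2 0.800, or 0.576. Spp1 stood apart from Tnc, Postn, Sparc and Thbs2, at r = -0.025, 0.091, -0.092 and -0.022. With Thbs1 it was at 0.517, or 0.675 with group means taken out, so it did not stand apart from Thbs1. In the 15 brain libraries the closest pairs were Postn and Thbs1 at 0.794 and Sparc and Thbs1 at 0.722, and Tnc ran at -0.348 with Postn. These correlations describe libraries that share groups and tissue makeup, and carry no p.

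The genes most like each member over the tumour libraries, among 10384 genes at 10 CPM or more, included collagen chains for Postn alone. For Postn they were Col5a2 (r = 0.968) and Col12a1 (0.964), 2 collagen chains, and Tfg (0.963). For Thbs2 they were Tfg (0.980), Adam12 (0.960), a metalloprotease of the cell surface, and Cercam (0.959). For Tnc they were Slit3 (0.981), a guidance ligand, Mical2 (0.972) and Sorcs2 (0.970), and for Sparc Rian (0.977), a noncoding RNA, Serpinf1 (0.965), which codes for the vessel-restraining factor PEDF, and Fpgs (0.963). For Thbs1 they were Ndel1 (0.983), Ube2q2 (0.976) and Lima1 (0.976), and for Spp1 Ext2 (0.944), Tes (0.943) and Rab18 (0.928).

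Over the 15 brain libraries, among 9815 such genes, other names led. For Thbs1 they were Amot (r = 0.965), which codes for angiomotin, a binder of YAP, Itsn1 (0.957) and Adcy8 (0.955). For Tnc they were Pxdn (0.959), a peroxidase that crosslinks type IV collagen, Inhba (0.958), which codes for the subunit of activin A, and Tnfsf15 (0.939). Postn was most like Inpp1 (0.907), Scamp5 (0.899) and Tgfb3 (0.886), a TGF-beta ligand, and Sparc like Marcks (0.914), Zfp703 (0.903) and Clstn1 (0.887). Spp1 was most like Nsun2 (0.896), Tuba4a (0.843) and Pigf (0.836), and Thbs2 like Ptcd3 (0.854), Pdgfra (0.853), a receptor that marks fibroblasts, and Bst1 (0.843).

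In the miRNA experiment, the 3 libraries titled miR-145a-3p had more Thbs1, Postn, Sparc and Tnc and less Spp1 than the 2 titled scrambled. Of 5 tested members, 4 were called higher and 1 lower, beside 28% of 10751 tested genes higher and 28.7% lower. The direction rests on the titles, which the library names contradict. Epithelial markers summed to 4172 to 4409 CPM in the libraries titled miR-145a-3p, against 3767 and 3810 CPM in those titled scrambled, and their part was not tested.

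Thbs1 stood at 902, 950.0 and 968 CPM in the libraries titled miR-145a-3p, against 438 and 535 CPM in those titled scrambled, 1.93-fold higher (log2 0.95 ± 0.092, adjusted p = 0.000183). Postn stood at 12.3, 13.5 and 14.2 CPM in those titled miR-145a-3p against 5.26 and 8.16 CPM in those titled scrambled, 1.97-fold higher (log2 0.98 ± 0.19, adjusted p = 0.00295). The groups did not overlap for these genes. Over the tested genes, the 2 libraries titled scrambled differed more from each other than the 3 titled miR-145a-3p did. Chi-square per degree of freedom, a measure of difference between 2 libraries beyond counting error, was 64.0 for the scrambled pair. It was 5.72 to 7.61 for pairs titled miR-145a-3p. Sparc stood at 195, 204 and 205 CPM in the libraries titled miR-145a-3p against 156 and 169 CPM in those titled scrambled, 1.24-fold higher (log2 0.31 ± 0.060, adjusted p = 0.00318).

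Tnc and Spp1 passed by less. Tnc stood at 45.8, 49.8 and 50.4 CPM in the libraries titled miR-145a-3p against 37.1 and 42.8 CPM in those titled scrambled (log2 0.28 ± 0.083, adjusted p = 0.0196), and Spp1 at 226, 231 and 237 CPM against 253 and 299 CPM (log2 -0.25 ± 0.076, adjusted p = 0.0214). Without scrambled replicate 1, Spp1 was at log2 -0.13 (adjusted p = 0.0544), and without any 1 of the libraries titled miR-145a-3p at -0.24 to -0.27 (adjusted p = 0.054 to 0.0799). Without a filter on low counts Spp1 was also at -0.13 (adjusted p = 0.202). As CPM of the total count without a scaling factor, Spp1 overlapped. Scrambled replicates 1 and 2 were then at 294.2 and 228.9 CPM, against 231 to 246 CPM in the libraries titled miR-145a-3p. Tnc lost its call without scrambled replicate 2, at log2 0.18 (adjusted p = 0.0604), and without replicates 2 or 3 titled miR-145a-3p (adjusted p = 0.0716 and 0.0748). Thbs2 had 1 count over the 3 libraries titled miR-145a-3p and 3 counts over the 2 titled scrambled.

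Related genes went both ways here too. All counts here stand beside 28% of all tested genes called higher and 28.7% called lower. Of 5 tested other matricellular genes 0 were higher and 2 lower (median log2 -0.09, all genes -0.01), and these were Ccn4 by 2.13-fold (adjusted p = 0.000104) and Thbs3 by 2.69-fold (adjusted p = 0.00014). Of 17 receptors 4 were higher and 5 lower (median log2 -0.07), among them Stab1, lower by 1.98-fold (adjusted p = 0.000135), Itgb6, which pairs in an integrin that activates TGF-beta, by 1.88-fold (adjusted p = 0.00145), and Itga5, the fibronectin receptor chain, by 1.25-fold (adjusted p = 0.00283). Of 11 matrix partners 5 were higher and 2 lower (median log2 0.17). Adamts1 rose 1.79-fold (adjusted p = 0.000182), Mmp9 rose 1.81-fold (adjusted p = 0.00035) and Mmp14, a membrane-bound collagenase, rose 1.32-fold (adjusted p = 0.00202) in the libraries titled miR-145a-3p.

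Set side by side, Thbs1 was lower in the IR group than in the untreated group in culture (log2 -1.43) and brain (log2 -0.97), both called, and at log2 1.12 in tumours, not called. Tnc ran at log2 -0.45 in culture, called, and at 0.56 in brain and 1.57 in tumours, neither called by edgeR. Postn ran at -2.19 in culture, where it had to differ, since it passed the filter only through the untreated libraries. It ran at -0.49 in brain and at 0.66 in tumours, neither called by edgeR. Differences between experiments were not tested, since each table was made and fitted on its own.

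**Figure D5:**
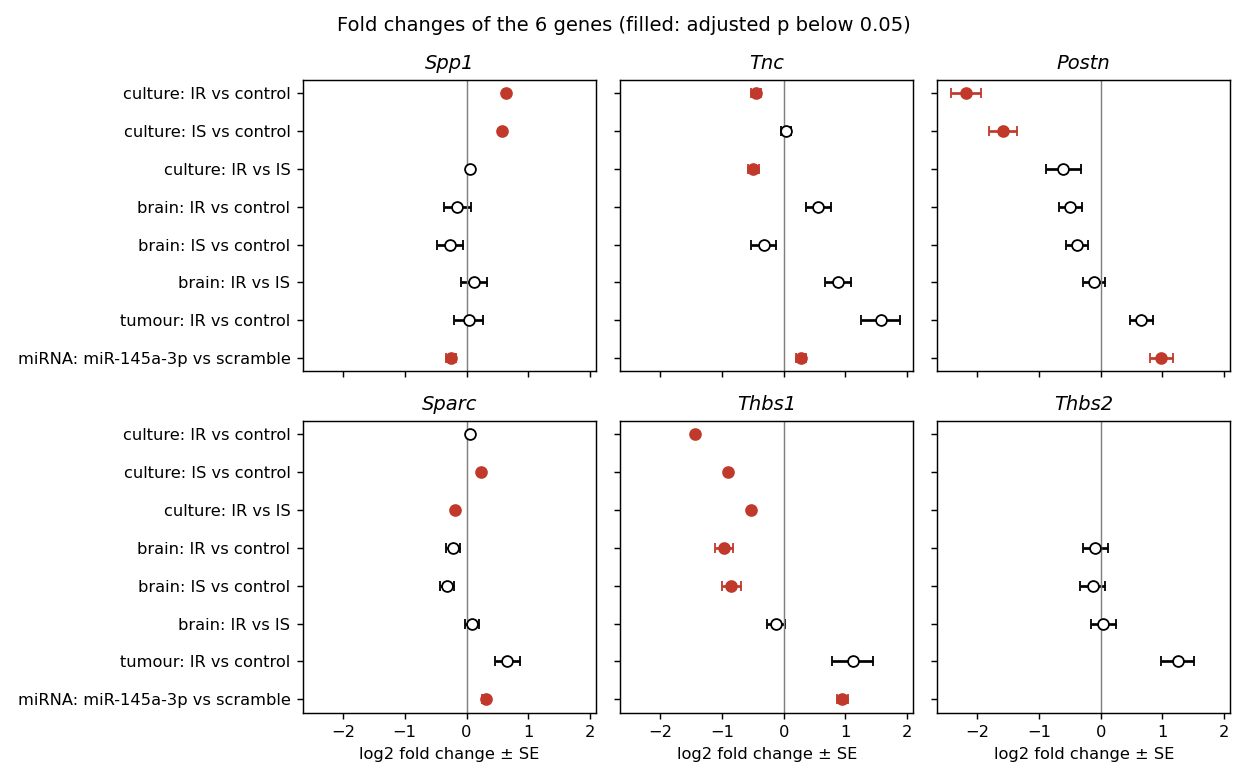
Log2 fold change ± SE of each gene in the 8 comparisons, the first-named group over the second; filled points have an adjusted p under 0.05. Thbs1 lies left of 0 in culture and brain against control and right of 0 in tumours and in the miRNA titles, and Thbs2 is missing where it was below the filter. In culture Postn passed the filter only through the untreated libraries, so its filled points there had to differ.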

How the data were processed

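The authors deposited expected counts per gene in 1 table per experiment, made with RSEM for culture and brain and with salmon for tumour and miRNA, per the file names and headers. The series text names nf-core and, for differential expression, DESeq2. Tools in the submitters' processing notes are STAR, Trimmomatic, DESeq2 and featureCounts, and builds are GRCm38 (mm10) and GRCm39 (mm39). No source used here says which table used which build, so coordinates are printed for promoter windows alone. Of the culture columns, 3 belong to no sample of the series and were left out. Kit and protocol are stranded per the labels, but how strand entered the counting is not stated. Spp1 and Thbs1 overlap exons of a little expressed annotated gene each (at most 126 and 1 counts in a library), and reads shared with it may have been split.

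Identifiers in the culture and brain tables were named through the tumour table (52139 of 55487 genes), with 3257 more named from a reference gene table. Exon lengths came from GENCODE M21. Expected counts were rounded, genes under 3 CPM in all but 2 or fewer libraries were dropped, after the filter of the series text, and libraries were scaled with TMM factors (trimmed mean of M values). CPM is relative to the summed counts of tested genes times that factor. Each experiment was fitted once, all groups together and with no covariate, by edgeR 4.0.16 in R 4.3.3 (quasi-likelihood F test), with Benjamini-Hochberg adjustment across all genes tested and a threshold of 0.05 for a call. SE is the log2 fold change over the square root of F. DESeq2 1.42.0, other scalings, no filter, 2-group fits, a replicate block and fits without 1 library were the alternatives. The test was also run on simulated counts with 1 spread for all genes of an experiment. Real genes differ in spread, so that run does not show how the test does on these libraries.

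The members, the 3 lists and the marker lists were chosen with earlier results of these data known. Named genes are all members, the 3 called genes of each list with the smallest adjusted p, and the 3 genes most like each member. No test compared a list with other genes. The share of all tested genes whose groups did not overlap was not counted in any experiment. The labels call the libraries biological replicates without naming cultures or animals, so p-values measure the spread between these libraries, which may be technical. Replicate numbers are shared between groups. In tumours, deviations of same-numbered libraries from their group means had r = 0.136, 0.759, 0.230 and 0.117 for replicates 1 to 4, high for replicate 2 alone. Libraries of unlike number were not compared, so these values do not show whether the numbers pair the tumours. The labels name no shared animal or day. With the replicate block 0 members were called in tumours, as without it. For IS against control in culture and brain and in the miRNA experiment, same-numbered libraries did not deviate together. The IR columns of culture and brain have names that also match tumour library names, so they were tied to their group alone and no pairing was examined for them. The tumour control titled replicate 4 has another number in its library name. Total counts limit precision little for these genes except Postn and Thbs2 in cultured cells.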

Additional observations from a re-analysis of the deposited data

Results flagged for a closer look

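Of 30 sets of a gene and a group of 4 or 5 libraries, 3 held a library far from the others, where chance gives about 1 in 20. In brain IS libraries, Spp1 was at 5684 CPM in replicate 1 against 2916 to 3654 CPM in the others, and Sparc at 1255 CPM in replicate 5 against 998 to 1067 CPM. In control tumours, Tnc was at 197.3 CPM in replicate 1 against 284 to 295 CPM.

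Tnc and Postn went opposite ways in culture and in tumours, with all libraries of the groups apart in both experiments. Tnc was at log2 -0.45 for IR exosome cells against untreated cells and at log2 1.57 for IR tumours against control tumours. Postn was at log2 -2.19 in the first comparison and at log2 0.66 in the second, but in culture it passed the low-count filter only through the untreated libraries, so it had to differ there. The difference between the experiments was not tested, and neither tumour value was called by edgeR.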

How the results depend on the processing

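All 44 log2 differences of members kept their direction and their side of the threshold under both other scalings. DESeq2 called 2 members for IR against control in brain, 1 for IR against IS in brain and 4 in tumours, where the fits reported call 1, 0 and 0. Over all genes DESeq2 called 604 for IR against IS in brain and 124 in tumours, against 6 and 0. With no filter on low counts 1 member and 334 genes were called for IR against IS in brain. Fits of only the 2 groups compared called 3 members for IR and 2 for IS against control in brain, and 0 genes for IR against IS. Without the 2 tumours rich in muscle markers 0 members and 1 gene were called.

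With 1 library left out, the genes called were 295 to 871 for IR against IS in culture (683 with all), 836 to 1803 for IR and 465 to 872 for IS against control in brain (1514 and 835), 0 to 1139 for IR against IS in brain and 0 to 1 in tumours. Members called were 1 to 2 for IR against control in brain, 0 to 1 for IR against IS and 3 to 4 in the miRNA experiment, against 5 with all libraries. Signs turned only for differences that were not called, with log2 ranges of -0.2176 to 0.0394 for Postn, -0.0878 to 0.3069 for Spp1 and -0.0786 to 0.219 for Thbs2 in brain IR against IS, -0.2088 to 0.0949 for Thbs2 in brain IR against control, -0.0051 to 0.1198 for Tnc in IS exosome against untreated cells and -0.1149 to 0.1798 for Spp1 in tumours.

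With the replicate block, 2 members and 3990 genes were called in the miRNA experiment, against 5 and 6093, where Spp1, Tnc and Sparc lost their calls (adjusted p = 0.135, 0.121 and 0.0553). For IS against control in brain 518 genes were called against 835, and in tumours 1 gene against 0. The block changed no other call among the members. For comparisons with the IR groups of culture and brain no paired analysis was possible. Their numbered columns could be tied to their group but not to a titled replicate. Same-numbered libraries did not deviate together in control against IS of culture and brain or in the miRNA experiment (r from -0.183 to 0.107), and IR pairs of culture and brain were not examined. The causes of these shifts were not tested.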
